A study of Mus musculus with 7 samples.

Results

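Transcript levels of 10 genes for the subunits of cohesin and condensin were followed through meiotic maturation of mouse oocytes. The genes were taken by symbol from the deposited tables, namely Rec8, Rad21, Stag3, Smc1a, Smc1b and Smc3 of cohesin and Smc2, Smc4, Ncapd3 and Ncaph of condensin. They made up 10 of 25912 listed entries, and 8 of them were among the 9202 entries abundant enough to be tested, with a mean of the 3 group means of at least 1 FPKM. Rec8, listed at 0 in every library, and Stag3, with a low level, were not among the tested entries. FPKM gives fragments relative to transcript length and sequencing depth, so levels of different genes could be set side by side. Each library held 10 pooled oocytes of 4-week-old C57BL/6 females primed with gonadotropin. The 2 GV libraries were of fully grown oocytes at the germinal vesicle stage, with no treatment according to the labels, although the methods describe DMSO controls at both stages. The 3 libraries called MII with DMSO were of oocytes matured to metaphase II in the solvent DMSO, and the 2 libraries called MII with BYBX were of oocytes matured in BYBX, a small molecule that binds and stabilizes RNA G-quadruplexes. The metaphase II stage corresponded to 16 h of culture, a time that is not stated for these libraries in particular. The RNA-seq methods and the labels do not give the dose of BYBX. The labels list the oocytes with BYBX under another genotype entry, "Treat", which names the treatment and no allele. Nothing in the labels says whether libraries of a group came from separate cultures or animals, so the p-values measure only the spread between libraries, which may be technical.

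Cohesin is a ring that holds sister chromatids together. It is built from SMC3 and either SMC1A or its germline counterpart SMC1B. The ring is closed by a kleisin, such as RAD21 or the meiotic REC8, and completed by a STAG subunit, which is STAG3 in meiosis. Oocytes load cohesin before birth and keep it until the meiotic divisions, when separase cuts REC8, on the chromosome arms in the first division and at the centromeres in the second. Condensin I and condensin II share SMC2 and SMC4 and compact the chromosomes as they condense. NCAPH is the kleisin of condensin I, and NCAPD3 is a HEAT-repeat subunit of condensin II. In maturing oocytes transcription is silent, and mRNAs are held, adenylated, translated or cleared through elements that lie mainly near their 3′ ends.

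Reverse transcription started from oligo-dT primers, so the values followed polyadenylated RNA, and less RNA and shorter poly(A) tails cannot be told apart in them. The 3′ ends of the members were therefore read from the longest protein-coding GENCODE vM21 transcript of each gene on GRCm38, over the last 100 bases of the 3′ UTR. The motifs searched on the transcript strand were AATAAA and ATTAAA, the usual polyadenylation signals, TTTTAT and TTTTAAT, the cytoplasmic polyadenylation element, and TGTANATA, the element bound by Pumilio proteins. Of 8368 tested genes with a 3′ UTR of at least 100 bases, 66.9% held AATAAA in this window, 22.3% ATTAAA, 16% TTTTAT, 5.98% TTTTAAT and 5.29% TGTANATA. The windows shown are those of Rad21 and Ncaph, the tested members with the smallest and the largest difference in log2(FPKM + 1) between GV and MII with DMSO, of Smc1a, next to Ncaph on that scale, and of Smc2 and Ncapd3, the members with TTTTAT. Capitals mark the motif, and every window lies in the 3′ UTR within 1 exon.
Rad21, AATAAA, chr15:51962240-51962269, minus strand: aaggtgagtttctgagcAATAAAagatttg
Ncaph, AATAAA, chr2:127103828-127103857, minus strand: aataccccaaAATAAAactattctggcaag
Ncaph, TGTANATA, chr2:127103879-127103908, minus strand: cccagatctaTGTACATAaaatttatcatt
Smc1a, AATAAA, chrX:152062665-152062694, plus strand: gggtttatctAATAAAtagagcctgaggaa
Smc2, TTTTAT, chr4:52488189-52488218, plus strand: tgtttttgtaTTTTATatatagtttcactc
Smc2, ATTAAA, chr4:52488225-52488254, plus strand: ttgtgcatatATTAAAtttctgtgagacat
Ncapd3, TTTTAT, chr9:27095243-27095272, plus strand: aattacaaatTTTTATtaaaagaggtgtac
Ncapd3, AATAAA, chr9:27095282-27095311, plus strand: aaaacaaagtAATAAAtgtcaaatataaat
In Ncapd3 the end of TTTTAT runs into an ATTAAA, so those matches share bases. Stag3 held AATAAA, and the windows of Smc1b and Smc3 held none of the motifs. The 3′ UTRs of Rec8, with 34 bases, and Smc4, with 97 bases, were shorter than the window and were not counted. A motif of 4 runs of at least 3 G with loops of 1 to 7 bases, the usual search pattern for an RNA G-quadruplex, was in none of the 10 member transcripts and in 18.7% of the 8747 tested genes with a transcript. These are matches of letters and were not measured as sites.

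The deposited FPKM values had been scaled by the authors to an ERCC spike-in and to the GV libraries of each batch, with factors that are not stated. The values summed to 402113 and 489569 FPKM in GV, to between 109732 and 127254 FPKM in MII with DMSO, and to 201482 and 246710 FPKM in MII with BYBX. Most genes followed these totals, and the median log2 change over the 9202 tested entries was -1.83 from GV to MII with DMSO, 0.84 from MII with DMSO to MII with BYBX and -0.99 from GV to MII with BYBX. A change of a member is therefore also given relative to that median, which shows where it stood among the other genes. The 14 oocyte markers checked were all listed, with a summed level of 14427 to 18341 FPKM in GV, 3028 to 3892 FPKM in MII with DMSO and 7724 to 9000 FPKM in MII with BYBX. The 15 granulosa and cumulus markers summed to at most 17.3 FPKM and the 6 erythrocyte markers to at most 1.13 FPKM in any library. The part of these somatic markers in the results was not tested. Fewer oocytes and less RNA per oocyte cannot be told apart in such pools. Read depth is unknown for these values, which carry no counting interval, and their precision rests on the 2 or 3 libraries of each group.

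**Figure D1:**
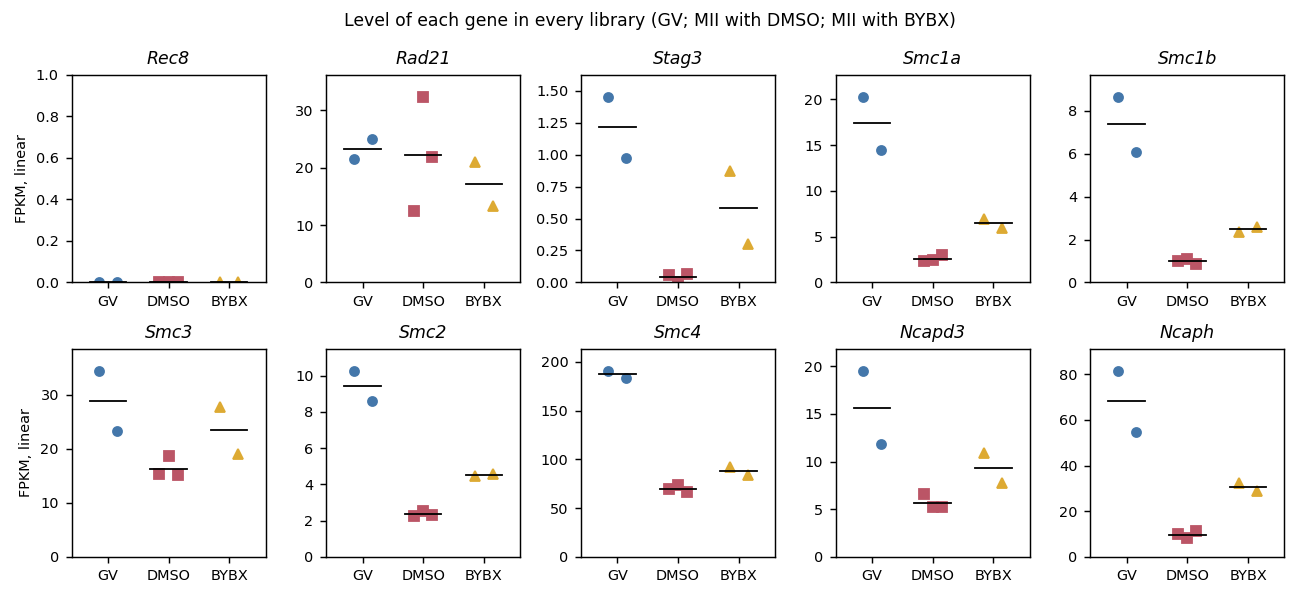
Level of each of the 10 genes in FPKM (linear axis from 0) in every library of GV, MII with DMSO and MII with BYBX oocytes, with points for libraries and bars for group means. Smc4 was highest in all 7 libraries, and Rec8 was listed at 0 throughout. The DMSO libraries of Stag3, Smc1a, Smc1b, Smc3, Smc2, Smc4, Ncapd3 and Ncaph lay below those of both other groups. Most tested entries went the same way in the limma fit, where 88.3% fell from GV to DMSO and 65.2% rose from DMSO to BYBX. These are shares of calls and not of groups without overlap. The share of all tested entries whose DMSO libraries lay below both other groups was not computed.

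The members differed widely in level and in how far the groups were apart. Smc4, which like Smc2 is common to both condensins, was the most abundant member. The meiosis-specific cohesin subunits Smc1b and Stag3 were the least abundant of the 9 members with a value over 0. The levels of condensin I kleisin Ncaph and of the SMC1 genes were lowest in MII with DMSO and intermediate with BYBX, whereas those of the kleisin Rad21 overlapped between GV and MII with DMSO.

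Among the SMC genes of cohesin, Smc3, the subunit common to every cohesin ring, had 34.4 and 23.3 FPKM in the GV libraries, 15.2, 18.7 and 15.1 FPKM in MII with DMSO, and 27.7 and 19.1 FPKM in MII with BYBX. The DMSO libraries were the lowest and did not overlap with either other group, while GV and BYBX overlapped. Smc1a, the somatic SMC1, had 20.3 and 14.5 FPKM in GV, 2.34, 2.48 and 2.97 FPKM with DMSO, and 6.98 and 5.94 FPKM with BYBX. Its 3 groups did not overlap, with BYBX between the others. Smc1b, the germline SMC1, had 8.66 and 6.08 FPKM in GV, 1.01, 1.08 and 0.863 FPKM with DMSO, and 2.38 and 2.57 FPKM with BYBX. Its groups stood apart in the same order as those of Smc1a, and it was below Smc1a in each of the 7 libraries.

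Of the kleisins, Rad21 had 21.5 and 25.0 FPKM in GV, 12.4, 32.3 and 21.8 FPKM with DMSO, and 21.0 and 13.3 FPKM with BYBX. The DMSO libraries spread over the whole range of the other groups, from the lowest to the highest value of all 7. Rec8, the meiotic kleisin that separase cuts, was listed at 0 in each library. Of 85 entries with ribosomal protein symbols, taken by symbol and not checked one by one, 2 were also listed at 0 in every library. Whether an exact 0 in these tables is absence or a failed estimate was not tested, and nothing is drawn from it about Rec8. The ratio of Rec8 to Rad21 could not be formed.

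Stag3, the meiotic STAG subunit, had 1.45 and 0.974 FPKM in GV, 0.868 and 0.297 FPKM with BYBX, and 0.0568 and 0.0691 FPKM in the DMSO libraries 1 and 3, and it was listed at 0 in DMSO library 2. The 3 groups did not overlap, but its mean over the groups was below the level at which genes were tested. The somatic STAG genes were higher, with Stag1 at 3.44 to 3.90 FPKM and Stag2 at 4.92 to 5.41 FPKM in GV. In MII with DMSO, Stag1 had 1.92 to 2.59 FPKM and Stag2 had 2.04 to 4.41 FPKM. Stag1 had 2.84 and 3.15 FPKM with BYBX, and Stag2 had 2.04 and 4.08 FPKM.

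Smc2 and Smc4 form the SMC pair of both condensins. Smc2 had 10.3 and 8.60 FPKM in GV, 2.25, 2.51 and 2.29 FPKM with DMSO, and 4.48 and 4.55 FPKM with BYBX. Smc4 had 190.6 and 184.0 FPKM in GV, 69.6, 73.4 and 66.6 FPKM with DMSO, and 92.7 and 83.9 FPKM with BYBX. For both genes the groups stood apart in the order GV, BYBX, DMSO, but the steps between them were of different size. Ncaph had 81.4 and 54.8 FPKM in GV, 9.88, 8.16 and 11.1 FPKM with DMSO, and 32.5 and 29.1 FPKM with BYBX. Ncapd3 had 19.5 and 11.8 FPKM in GV, 6.54, 5.28 and 5.25 FPKM with DMSO, and 10.9 and 7.70 FPKM with BYBX. The groups of Ncaph were far apart, and those of Ncapd3 did not overlap but came close between GV and BYBX.

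The order of the mean levels per length changed with the stage. In GV it ran from Smc4 (187.3 ± 4.67 FPKM, SD, n = 2) and Ncaph (68.1 ± 18.8) over Smc3 (28.8 ± 7.86), Rad21 (23.3 ± 2.47), Smc1a (17.4 ± 4.09) and Ncapd3 (15.7 ± 5.44) to Smc2 (9.43 ± 1.17) and Smc1b (7.37 ± 1.82). In MII with DMSO it ran from Smc4 (69.9 ± 3.42, SD, n = 3) over Rad21 (22.2 ± 9.98), Smc3 (16.3 ± 2.03), Ncaph (9.71 ± 1.48), Ncapd3 (5.69 ± 0.737), Smc1a (2.597 ± 0.328) and Smc2 (2.35 ± 0.140) to Smc1b (0.983 ± 0.110). In MII with BYBX it was Smc4 (88.3 ± 6.17, SD, n = 2), Ncaph (30.8 ± 2.47), Smc3 (23.4 ± 6.10), Rad21 (17.1 ± 5.41), Ncapd3 (9.33 ± 2.29), Smc1a (6.46 ± 0.731), Smc2 (4.52 ± 0.0449) and Smc1b (2.48 ± 0.140). Ncaph was thus next to Smc4 in GV and with BYBX and stood below Rad21 and Smc3 with DMSO. Some neighbours had means within the spread of the single genes. Of these, Smc3 and Rad21 in GV, and Rad21 and Smc3 or Smc1a and Smc2 with DMSO, changed order between libraries of the group. Smc1a and Ncapd3 or Smc2 and Smc1b in GV, and Smc3 and Rad21 with BYBX, kept their order in every library of the group.

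The first comparison, of MII with DMSO with GV, asked how these mRNAs changed during normal maturation. In the limma fit 7 of 8 tested members were lower in MII and none was higher at an adjusted p under 0.05 (7 lower and none higher at an unadjusted p under 0.05), whereas with every library at the same total FPKM 3 were lower and 3 higher, and after median centring none was lower and 5 were higher. Over all tested entries 88.3% were lower and 0.272% higher, so the share of members is close to that of other genes. At the same total FPKM 49.5% of all tested entries were lower and 23.3% higher, and after median centring 26.7% and 48.8%. With a minimum of 2-fold added, 6 members were lower and none was higher, against 74.9% and 0.0869% of all tested entries. The median log2 change was -1.52 for the members and -1.83 for all tested entries. The members spread from the 29.4th to the 96.7th percentile of all changes.

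Of the tested members, Ncaph, Smc1a and Smc1b fell furthest in log2(FPKM + 1). Ncaph changed by -2.67 in log2(FPKM + 1) (standard error 0.26, limma adjusted p = 3.4e-07), and its mean level in MII was 14.3% of that in GV. Smc1a changed by -2.34 (standard error 0.24, limma adjusted p = 4.7e-07) and Smc1b by -2.06 (standard error 0.21, limma adjusted p = 5.4e-07). Their order depended on the pseudocount, since with 0.1 FPKM the log2 changes were -2.78 for Ncaph, -2.68 for Smc1a and -2.77 for Smc1b. Relative to the median of all tested entries, with 1 FPKM, these were differences of -0.84, -0.51 and -0.23. With 0.1 FPKM the median of all tested entries was -2.53, and Ncaph and Smc1a lay nearer to it. With every library at the same total FPKM these 3 genes were still lower in MII, by log2 changes of -0.87, -0.74 and -0.74, but after median centring none of them passed the threshold and Smc1b was at 0.24. The other SMC genes and Ncapd3 fell less. Smc2 changed by -1.63 (standard error 0.21, limma adjusted p = 6.3e-06), Smc4 by -1.41 (standard error 0.23, limma adjusted p = 6.4e-05), Ncapd3 by -1.28 (standard error 0.27, limma adjusted p = 5.1e-04) and Smc3 by -0.76 (standard error 0.27, limma adjusted p = 0.017). Relative to the median these 4 genes were at 0.20, 0.42, 0.55 and 1.07, that is above the typical gene, and after median centring each of them was higher in MII. The fall of Smc3 rested on the higher GV library, since without GV replicate 1 the log2 change was -0.49 (limma adjusted p = 0.16).

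Rad21 was the member furthest from the rest. Its log2 change of -0.16 (standard error 0.35, 95% interval -0.91 to 0.59, limma adjusted p = 0.66) did not pass the threshold. It lay 1.67 above the median change, at the 96.7th percentile, and was 1.64 with every library at the same total FPKM (limma adjusted p = 0.0012). Without DMSO replicate 1, the library with the lowest Rad21, the log2 change was 0.19. The direction of Rad21 thus depended on the scale and on single libraries.

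**Figure D2:**
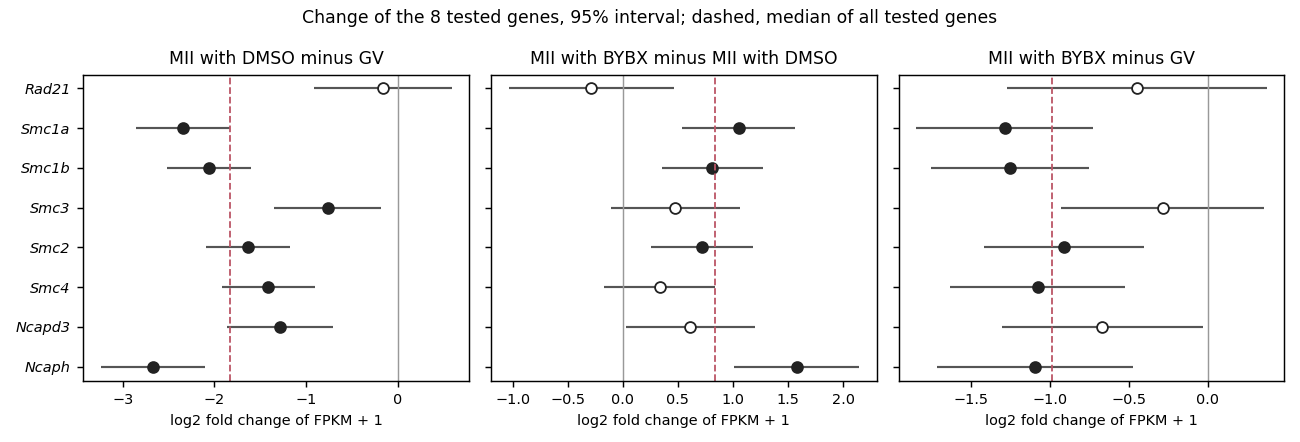
Log2 fold change of FPKM + 1 for the 8 tested genes in 3 comparisons, with 95% intervals from limma; filled points passed an adjusted p of 0.05, and the dashed line is the median of all 9202 tested entries. On the deposited scale Ncaph, Smc1a and Smc1b lay below the median from GV to MII with DMSO and Rad21 1.67 above it. The directions of Rad21, Smc1b, Smc3, Smc2, Smc4 and Ncapd3 in that comparison turned after median centring.

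The second comparison, of MII with BYBX with MII with DMSO, asked how the levels differed with the ligand at the end of culture. It shares the DMSO libraries with the first, so the changes are not independent of each other. The paper reports that fewer oocytes released the first polar body as the BYBX concentration rose, and that spindles were abnormal. Its RNA-seq methods do not say whether oocytes were selected for a polar body. An effect of the ligand and a difference in meiotic stage therefore cannot be told apart here. Of 8 tested members 4 were higher with BYBX and none was lower in the limma fit (5 higher and none lower at an unadjusted p under 0.05), while with every library at the same total FPKM 1 was higher and 2 were lower, and after median centring none was higher and 6 were lower. Over all tested entries 65.2% were higher and 0.0326% lower, and the median log2 change was 0.67 for the members and 0.84 for all. At the same total FPKM 39.9% of all tested entries were higher and 8.22% lower, and after median centring 18.4% and 43.9%. With a minimum of 2-fold in FPKM + 1 added, only Ncaph and Smc1a among the members were higher and none was lower. The shares of all tested entries were 42.1% and 0.0109%. The added 1 FPKM weighs on low levels, and mean FPKM with BYBX was 2.52 times that with DMSO for Smc1b and 2.49 times for Smc1a.

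The genes that were higher were Ncaph, Smc1a, Smc1b and Smc2. Ncaph was 1.58 higher in log2(FPKM + 1) (standard error 0.26, limma adjusted p = 1.5e-04), with a mean level 3.17 times that with DMSO. Smc1a was 1.05 higher (standard error 0.24, limma adjusted p = 0.0016), Smc1b 0.81 higher (standard error 0.21, limma adjusted p = 0.0044) and Smc2 0.72 higher (standard error 0.21, limma adjusted p = 0.0095). Relative to the median change, Ncaph was at 0.74, Smc1a at 0.22, Smc1b at -0.03 and Smc2 at -0.12. Of these, Ncaph stood furthest above the typical gene, at the 76.4th percentile of all changes. With a pseudocount of 0.1 FPKM the median was 1.294, and Smc1a at 1.285, Smc1b at 1.253 and Smc2 at 0.916 lay below it. Ncaph was also the member that remained higher with every library at the same total FPKM, by 0.75 (limma adjusted p = 0.014), and after median centring its log2 change was 0.30 (limma adjusted p = 0.20).

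The other members did not pass the threshold on the deposited scale. Ncapd3 had a log2 change of 0.61 (95% interval 0.03 to 1.196, limma adjusted p = 0.060), which passed when only the libraries of the compared groups were fitted (limma adjusted p = 0.043). Smc3 had 0.48 (95% interval -0.11 to 1.06, limma adjusted p = 0.14) and Smc4 had 0.33 (95% interval -0.17 to 0.84, limma adjusted p = 0.22). Rad21 had -0.29 (95% interval -1.04 to 0.46, limma adjusted p = 0.47), at the 0.467th percentile of all changes. Without DMSO replicate 2, which held the highest Rad21, or without BYBX replicate 2, its log2 change was 0.02. With every library at the same total FPKM it was -1.15 (limma adjusted p = 0.015). The DMSO and BYBX libraries of Rad21 overlapped.

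The third comparison, of MII with BYBX with GV, shares its libraries with the others and asked how far the treated oocytes were from the starting stage. On the deposited scale 5 of 8 tested members were lower than in GV and none was higher in the limma fit (6 lower and none higher at an unadjusted p under 0.05), but none was lower with every library at the same total FPKM or after median centring, where 1 member, Smc3, was higher. Over all tested entries 69.2% were lower and 0.315% higher, with a median log2 change of -0.99, against -0.996 for the members. At the same total FPKM 13.3% of all tested entries were lower and 5.30% higher, and after median centring 13.6% and 15.2%. With a minimum of 2-fold in FPKM + 1 added, 4 members were lower and none was higher, against 49.2% and 0.196% of all tested entries. Smc2 was not among them, although its mean FPKM with BYBX was 47.9% of that in GV. Smc1a changed by -1.29 (limma adjusted p = 7.7e-04), Smc1b by -1.25 (limma adjusted p = 4.3e-04), Ncaph by -1.09 (limma adjusted p = 0.0044), Smc4 by -1.08 (limma adjusted p = 0.0023) and Smc2 by -0.91 (limma adjusted p = 0.0037). Ncapd3 at -0.67 (95% interval -1.31 to -0.03, limma adjusted p = 0.058), Rad21 at -0.45 (95% interval -1.27 to 0.37, limma adjusted p = 0.30) and Smc3 at -0.29 (95% interval -0.93 to 0.36, limma adjusted p = 0.40) did not pass. Relative to the median the members lay between -0.30 for Smc1a and 0.70 for Smc3. These were the 32.9th and 86.0th percentiles of all changes, against the 29.4th and 96.7th for the outermost members from GV to MII with DMSO.

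The rank of a gene within its own library does not depend on the factor by which the library was scaled. Rad21 stood at a percentile of 65.3 ± 6.51 (SD, n = 2) among the tested entries in GV, 89.4 ± 3.83 (SD, n = 3) in MII with DMSO and 75.3 ± 4.02 (SD, n = 2) with BYBX, without overlap. Smc3 ranked at 70.0 ± 2.31, 87.4 ± 1.21 and 81.2 ± 2.36 in the same groups and Ncapd3 at 55.0 ± 5.02, 72.9 ± 3.16 and 62.3 ± 3.404, and neither overlapped between groups. These genes thus moved up among the tested mRNAs from GV to MII with DMSO and stood in between with BYBX. Ranked among all listed entries, they kept this order with smaller steps. Rad21 was then at 87.7, 96.3 and 91.2, Smc3 at 89.3, 95.5 and 93.3, and Ncapd3 at 84.0, 90.4 and 86.6. Smc2 ranked at 42.2 ± 1.33 in GV, 56.3 ± 1.53 with DMSO and 44.3 ± 2.01 with BYBX, where only the DMSO libraries stood apart. Smc4 ranked near the top, at 95.7 ± 0.572, 97.2 ± 0.315 and 95.7 ± 0.430. Ncaph went the other way, at 85.6 ± 1.86 in GV, 81.2 ± 2.42 with DMSO and 85.7 ± 0.738 with BYBX, with each DMSO library below the other 4. Smc1a ranked at 58.4 ± 1.51, 58.3 ± 1.46 and 53.7 ± 0.891, and Smc1b at 35.3 ± 1.96, 37.7 ± 3.44 and 28.6 ± 2.64. For both SMC1 genes the BYBX libraries were the lowest, and GV and DMSO overlapped.

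**Figure D3:**
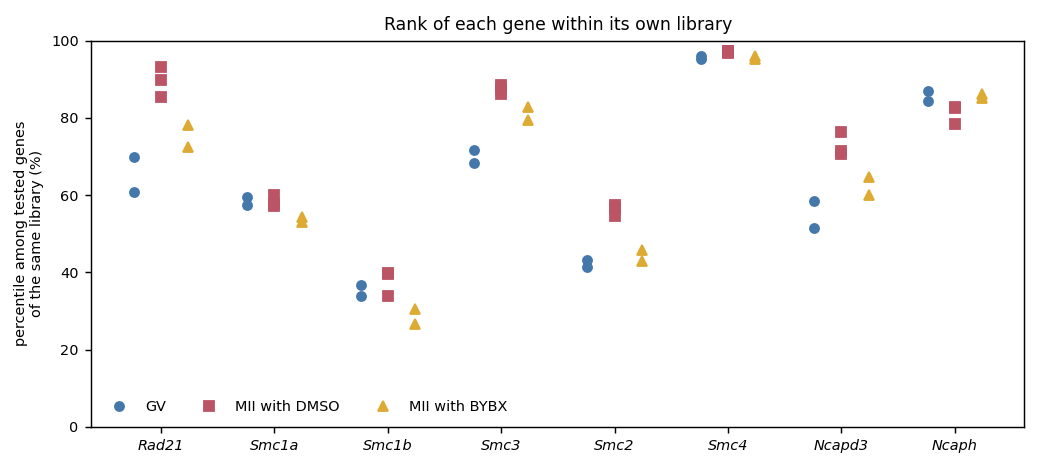
Percentile of each of the 8 tested genes among the 9202 tested entries of the same library (vertical axis, %), with 1 point per library and a symbol for each group. Rad21, Smc3 and Ncapd3 ranked higher in MII with DMSO than in GV without overlap, Ncaph ranked lower, and the SMC1 genes ranked lowest with BYBX.

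Ratios of subunits within a library are likewise free of its scale. An exact two-sided permutation test of the log2 ratio cannot go below p = 0.1 with 2 libraries against 3 or below 0.3333 with 2 against 2, and 11 such tests were made. The ratio of Smc4 to Smc2, partners in the same dimer, was 18.6 and 21.4 in GV, 31.0, 29.3 and 29.1 with DMSO, and 20.7 and 18.5 with BYBX. Every DMSO library had the higher ratio, and GV and BYBX overlapped. The log2 ratio differed by 0.58 between MII with DMSO and GV and by -0.61 between BYBX and DMSO (exact permutation p = 0.1 for each, Benjamini-Hochberg adjusted p = 0.275), and by -0.03 between BYBX and GV (exact permutation p = 0.667).

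The ratio of Ncapd3 of condensin II to Ncaph of condensin I was 0.240 and 0.216 in GV, 0.662, 0.647 and 0.473 with DMSO, and 0.336 and 0.265 with BYBX. Its 3 groups did not overlap, with BYBX nearer to GV than to DMSO. The log2 ratio differed by 1.37 between DMSO and GV and by -0.98 between BYBX and DMSO (exact permutation p = 0.1 for each, Benjamini-Hochberg adjusted p = 0.275). Between BYBX and GV the difference was 0.39 (exact permutation p = 0.3333, Benjamini-Hochberg adjusted p = 0.733). The ratio pairs unlike subunits and does not stand for condensin II against condensin I. Like subunits did not all move this way, a comparison made after their values were seen. Mean levels with DMSO were 4.31% of GV for the condensin II kleisin Ncaph2 and 14.3% for Ncaph. They were 93.9% for Ncapg2 of condensin II and 6.99% for Ncapg of condensin I. For Ncapd3 and its untested condensin I counterpart Ncapd2 they were 36.3% and 54.7%.

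The ratio of Smc1b to Smc1a, the alternative SMC1 subunits, was 0.427 and 0.420 in GV, 0.431, 0.434 and 0.291 with DMSO, and 0.341 and 0.433 with BYBX. All groups overlapped, and the lowest value was that of 1 DMSO library. The log2 ratio differed by -0.16 between DMSO and GV, by 0.02 between BYBX and DMSO and by -0.14 between BYBX and GV (exact permutation p = 1, 0.9 and 1). With so few libraries a difference of this ratio was not detectable, which does not show that it was equal. The ratio of Stag3 to Stag2 was 0.268 and 0.198 in GV and 0.426 and 0.0728 with BYBX, and that of Stag3 to Stag1 was 0.373 and 0.283 in GV and 0.305 and 0.0944 with BYBX. These overlapped (exact permutation p = 1 and 0.667), and with the 0 of DMSO library 2 no mean could be formed for the DMSO group.

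**Figure D4:**
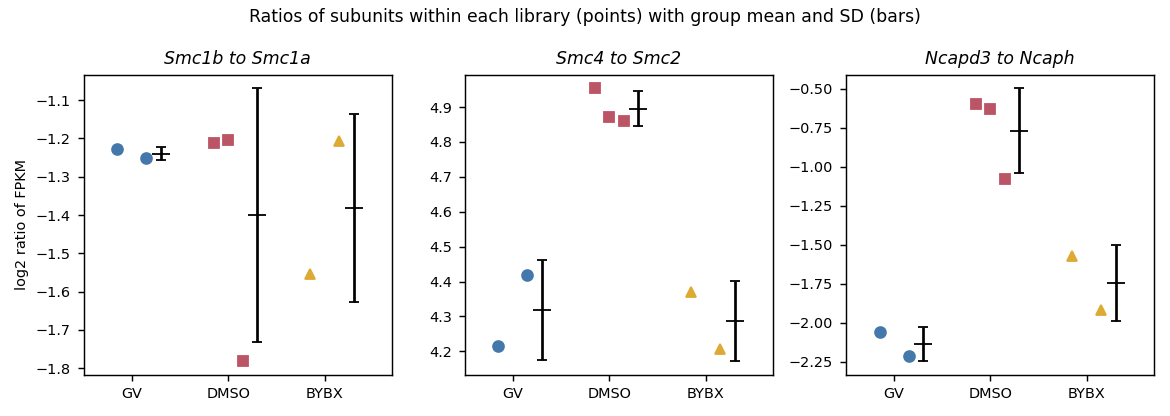
Log2 ratio of FPKM of Smc1b to Smc1a, Smc4 to Smc2 and Ncapd3 to Ncaph in each library, with points for libraries and bars for the group mean and SD (n = 2, 3 and 2; each panel has its own axis, which does not start at 0). The DMSO libraries had higher ratios of Smc4 to Smc2 and of Ncapd3 to Ncaph than the other libraries, by a log2 difference of 0.58 and 1.37 against GV.

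The members were also set within a wider list of 41 genes for subunits, loaders, regulators and protectors of cohesin, for condensin and for the SMC5/6 complex, of which 38 were tested. From GV to MII with DMSO 29 of these 38 fell and none rose in the limma fit, but 10 fell and 17 rose with every library at the same total FPKM and 5 fell and 25 rose after median centring. Of all tested entries 88.3% fell and 0.272% rose on the deposited scale, 49.5% fell and 23.3% rose at the same total FPKM, and 26.7% fell and 48.8% rose after median centring. The median log2 change was -1.04 for the list and -1.83 for all tested entries. With BYBX 14 of 38 were higher than with DMSO and none was lower, against 5 and 8 with every library at the same total FPKM and 2 and 25 after median centring, and the median was 0.51 for the list and 0.84 for all. The shares of all tested entries higher and lower were 65.2% and 0.0326%, then 39.9% and 8.22%, then 18.4% and 43.9% on these scales. From GV to MII with BYBX 21 of 38 were lower and none was higher, against 2 and 4 with every library at the same total FPKM and 2 and 6 after median centring, with medians of -0.75 and -0.99. Here the shares of all tested entries lower and higher were 69.2% and 0.315%, then 13.3% and 5.30%, then 13.6% and 15.2%. Without the members, and against 88.3%, 65.2% and 69.2% of all tested entries, 22 of 30 tested genes fell from GV to MII with DMSO, 10 were higher with BYBX than with DMSO and 16 were lower with BYBX than in GV.

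By role, on the deposited scale, where 88.3% of all tested entries fell from GV to MII with DMSO, 5 of 7 tested cohesin subunits fell. So did 1 of 2 loaders, all 3 genes of the release factor WAPL and the PDS5 proteins, all 4 genes of cohesin acetylation and its maintenance, 4 of 6 protectors of centromeric cohesin, 5 of 7 genes of SMC5/6 and SMCHD1, and 1 of 2 among separase and securin. Of the condensin genes, both common SMC genes, both tested condensin I genes and 2 of 3 condensin II genes fell. With BYBX against DMSO, where 65.2% of all tested entries were higher, the genes that were higher were 2 of 7 cohesin subunits, 1 of 2 loaders, 1 of 3 of the release group, 1 of 4 of the acetylation group, 3 of 6 protectors, 2 of 7 of the SMC5/6 group, neither separase nor securin, 1 of 2 common condensin genes, both tested condensin I genes and 1 of 3 condensin II genes.

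The other genes of the list were ranked where the higher of the groups compared averaged 10 FPKM or more. Among these, Meikin, Ncapg and Cdca5 changed most from GV to MII with DMSO, and Ncapg, Cdca5 and Nsmce1 from DMSO to BYBX. Meikin and Ncaph2 rose more from DMSO to BYBX, but averaged only 3.38 and 5.81 FPKM with BYBX and less with DMSO. Meikin encodes a kinetochore protein of the first meiotic division that helps to protect centromeric cohesin, and it had 16.4 and 14.5 FPKM in GV, 0.0120, 0.165 and 0.0652 FPKM with DMSO, and 3.43 and 3.34 FPKM with BYBX. Its log2 change was -3.93 from GV to MII with DMSO (standard error 0.20, limma adjusted p = 7.6e-10) and 2.02 from DMSO to BYBX, and both kept their direction and passed under each of the other scalings. Ncapg, a condensin I subunit that binds NCAPH, had 168.2 and 116.5 FPKM in GV, 9.90, 12.1 and 7.87 FPKM with DMSO, and 37.9 and 33.4 FPKM with BYBX. Its log2 change was -3.70 (standard error 0.27, limma adjusted p = 1.8e-08) from GV to MII with DMSO, 1.76 (limma adjusted p = 7.8e-05) from DMSO to BYBX and -1.95 from GV to BYBX. The groups of both genes stood apart in the order GV, BYBX, DMSO, as those of Ncaph did.

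Cdca5, which encodes sororin, the factor that keeps acetylated cohesin on DNA, had 184.1 and 138.5 FPKM in GV, 13.8, 18.3 and 10.4 FPKM with DMSO, and 52.4 and 44.0 FPKM with BYBX. Its log2 change was -3.44 (standard error 0.28, limma adjusted p = 5.3e-08) and then 1.72 (limma adjusted p = 1.3e-04). After median centring the rises of Ncapg (log2 change 0.48) and Cdca5 (0.44) with BYBX did not pass the threshold. Against GV, Meikin with BYBX changed by -1.91 (limma adjusted p = 5.9e-05) and Cdca5 by -1.71 (limma adjusted p = 3.5e-04), but Cdca5 did not pass under either other scaling. Nsmce1, a subunit of the SMC5/6 complex, was 1.38 higher with BYBX than with DMSO (standard error 0.27, limma adjusted p = 6.1e-04), with 27.2, 33.9 and 27.7 FPKM with DMSO and 101.0 and 60.7 FPKM with BYBX. It did not pass with BYBX at the same total FPKM (log2 change 0.51) or after median centring (0.10). Within condensin II the specific subunits differed on the deposited scale, an observation chosen after their values were seen. Ncaph2, the condensin II kleisin, changed by -3.30 from GV to MII with DMSO (limma adjusted p = 1.4e-08) and by 2.02 from DMSO to BYBX (limma adjusted p = 6.8e-06), whereas from GV to MII with DMSO Ncapg2 had a log2 change of -0.09 (95% interval -0.67 to 0.48, limma adjusted p = 0.74), with Ncapd3 between them. Ncapd2, the condensin I counterpart of Ncapd3, stayed below the level for testing, at 0.424 to 1.34 FPKM over the 7 libraries. Securin, encoded by Pttg1 and also named after its values were seen, was at 1897 to 3404 FPKM in the 7 libraries, far above every cohesin subunit.

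**Figure D5:**
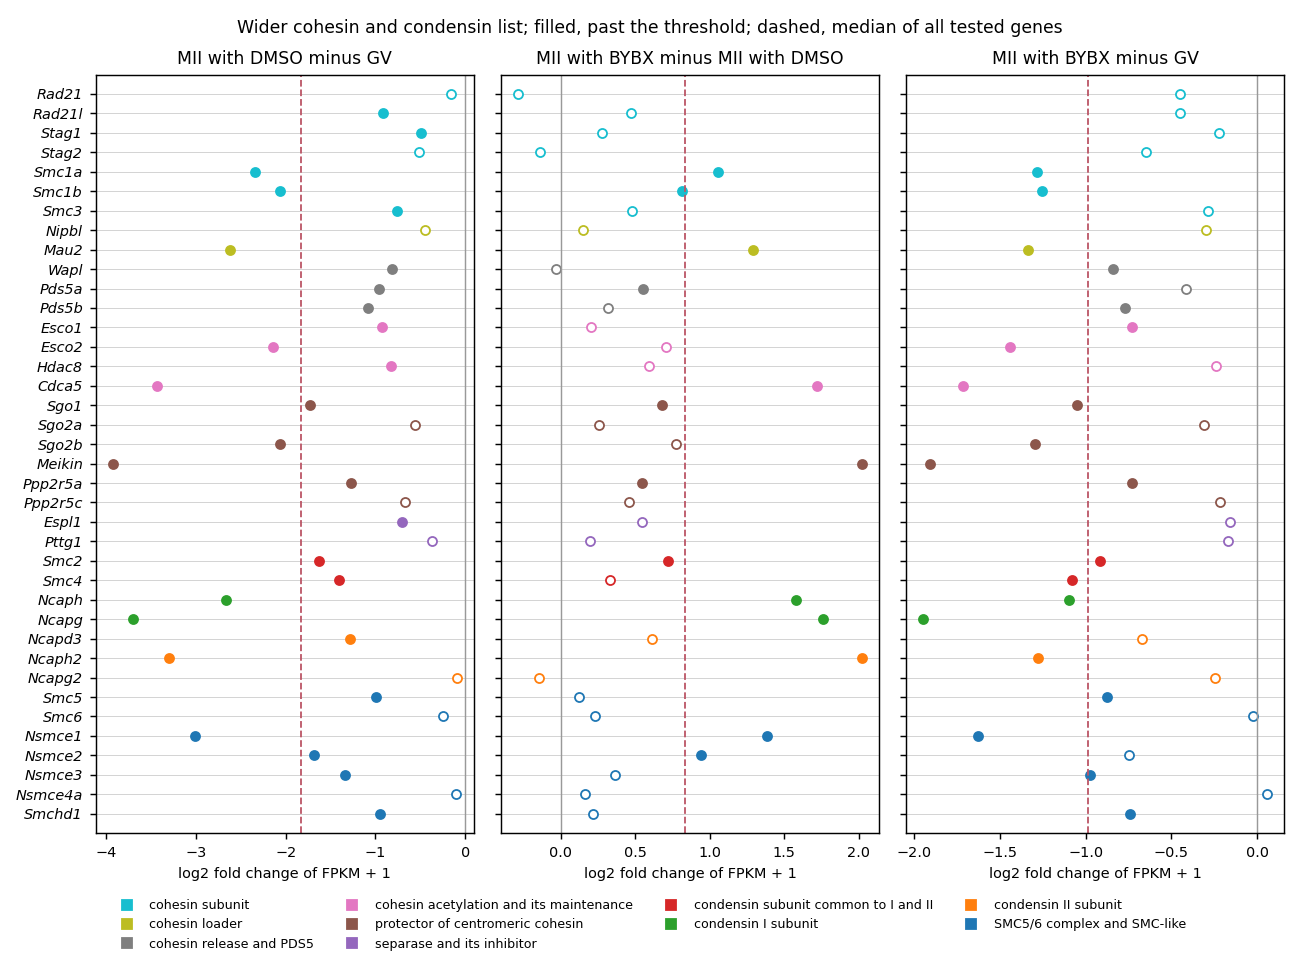
Log2 fold change of FPKM + 1 for the 38 tested genes of the wider list in 3 comparisons, coloured by role; filled points passed a limma adjusted p of 0.05, and the dashed line is the median of all tested entries. On the deposited scale 29 genes fell from GV to MII with DMSO (88.3% of all tested entries) and 14 were higher with BYBX than with DMSO (65.2%), and after median centring 25 of the 38 rose (48.8% of all) and 25 were lower (43.9%), respectively.

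The tested genes outside the list whose profiles were most like those of Ncaph and Rad21 were found by the distance between log2(FPKM + 1) profiles over the 7 libraries, each taken relative to its GV mean, among 5130 genes of at least 10 FPKM in GV. Nearest to Ncaph were Arhgef7 (distance 0.235), Rffl (0.258) and Tuba3b (0.280). Nearest to Rad21 were Wdr26 (0.493), Rmnd5a (0.494) and Top1 (0.511). The mean level of Top1, which encodes DNA topoisomerase I, was 84.1 FPKM in GV, 70.9 FPKM in MII with DMSO and 68.5 FPKM with BYBX. The mean level of Arhgef7 was 16.99, 1.78 and 6.97 FPKM in the same groups.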

How the data were processed

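RNA-seq by Smart-seq2 was analysed for 7 libraries (2 GV, 3 MII with DMSO, 2 MII with BYBX), grouped by the sample labels. The authors trimmed reads with Trim Galore 0.6.7, aligned them to mm10 with HISAT2 2.2.1, computed FPKM with Cufflinks 2.2.1 on UCSC gene models and scaled it to the ERCC spike-in and to the GV libraries of each batch. The deposited FPKM tables list 25912 entries under 25164 names, and 4 entries with a missing value were dropped. Reads shared by near-identical copies can be split between genes.

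The deposited values were analysed as log2(FPKM + 1), which understates changes of genes near 1 FPKM, with limma 3.58.1 in R 4.3.3 (empirical Bayes with an intensity trend, all 7 libraries, 3 group means, 4 residual degrees of freedom) on the 9202 entries whose group means averaged 1 FPKM or more. Calls were made at a Benjamini-Hochberg adjusted p under 0.05 over all of these. The fit was tested on simulated data. Ratios were compared by exact permutation tests with scipy 1.17.1, and plots and tables were made with Python 3.11.15. Transcripts came from GENCODE vM21 on GRCm38, which UCSC calls mm10, and 8769 of the tested entries (95.3%) matched one by symbol. The members and lists were chosen with earlier results of these data known. Besides the members, the text names the 3 genes of the wider list with the largest called change in each comparison. A gene counted only with at least 10 FPKM in the higher of the groups compared. Also named are Stag1 and Stag2 as partners in ratios, and the 3 genes nearest to the members with the largest and the smallest fall. Ncaph2, Ncapg2, Ncapd2 and Pttg1 were named outside this rule and are given on the deposited scale only. Alternatives were a pseudocount of 0.1, a filter at 5 FPKM or none, equal total FPKM per library and centring on library medians. Others were fits of the compared groups alone, a block for the replicate number and no trend. A 2-fold minimum in FPKM + 1 and leaving out each library in turn were also used.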

Additional observations from a re-analysis of the deposited data

How the results depend on the processing

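The scale of the libraries moved the results most, and which scale is nearer to the RNA per oocyte was not tested. The 2 scalings were rescaling to the same total FPKM and median centring, and the cause of each change below was not tested. From GV to MII with DMSO, members lower and higher were 3 and 3 at the same total FPKM and 0 and 5 after median centring, and genes of the wider list 10 and 17, and 5 and 25. From MII with DMSO to BYBX, members lower and higher were 2 and 1, and 6 and 0, and genes of the wider list 8 and 5, and 25 and 2. From GV to BYBX, members lower were 0 under either scaling and 1 was higher after median centring, and genes of the wider list were 2 and 4, and 2 and 6. A minimum of 2-fold in FPKM + 1 left 2 members and 8 genes of the wider list higher with BYBX than with DMSO. It left 19 genes of the list lower from GV to MII with DMSO and 13 lower from GV to BYBX.

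At the same total FPKM the log2 change from GV to MII with DMSO was 1.64 for Rad21, 1.04 for Smc3, 0.46 for Smc4, 0.42 for Ncapd3, 0.91 for Stag1 and 1.01 for Stag2. From DMSO to BYBX it was -0.38 for Smc3, -0.55 for Smc4, -0.18 for Ncapd3 and -0.41 for Stag1, and from GV to BYBX 0.49 for Rad21, 0.66 for Smc3, 0.24 for Ncapd3, 0.51 for Stag1 and 0.14 for Stag2. After median centring the log2 change from GV to MII with DMSO was 2.14 for Rad21, 0.24 for Smc1b, 1.54 for Smc3, 0.67 for Smc2, 0.89 for Smc4, 1.02 for Ncapd3, 1.81 for Stag1 and 1.79 for Stag2. From DMSO to BYBX it was -0.22 for Smc1a, -0.47 for Smc1b, -0.80 for Smc3, -0.56 for Smc2, -0.95 for Smc4, -0.66 for Ncapd3 and -1.004 for Stag1, and from GV to BYBX 0.58 for Rad21, 0.74 for Smc3, 0.11 for Smc2, 0.36 for Ncapd3, 0.80 for Stag1 and 0.38 for Stag2. The 24 changes of tested members kept direction and side of the threshold with a pseudocount of 0.1 and with no filter, and so did the 21 that could be fitted at the 5 FPKM filter. At a pseudocount of 0.1 the median over all tested entries was -2.53 from GV to MII with DMSO. It was 1.29 from DMSO to BYBX and -1.19 from GV to BYBX. Distances of members from the median therefore depended on the pseudocount.

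Leaving out 1 library at a time gave 6 to 7 members lower from GV to MII with DMSO, 4 to 5 higher from DMSO to BYBX and 5 to 6 lower from GV to BYBX, and 24 to 29, 13 to 18 and 16 to 22 genes of the wider list. The log2 change of Rad21 then ranged from -0.47 to 0.19 from GV to MII with DMSO and from -0.64 to 0.0227 from DMSO to BYBX, and that of Stag2 from -0.51 to 0.23 from DMSO to BYBX. Ncapd3 was called higher with BYBX than with DMSO without GV replicate 1, GV replicate 2, DMSO replicate 1 or BYBX replicate 2, and lower with BYBX than in GV without GV replicate 2 or BYBX replicate 1 and without the intensity trend. Stag1, counted among the genes that fell from GV to MII with DMSO, did not pass without GV replicate 1 or any 1 of the DMSO libraries, under the block or with a pseudocount of 0.1. The difference in log2 ratio of Smc1b to Smc1a ranged from -0.26 to 0.0308 (DMSO against GV), -0.17 to 0.19 (BYBX against DMSO) and -0.31 to 0.0320 (BYBX against GV). That of Stag3 to Stag2 between BYBX and GV ranged from -1.66 to 0.89, and that of Smc4 to Smc2 from -0.13 to 0.0709. With 1 FPKM added to each value the differences were 0.28, -0.24 and 0.0343 for Smc1b to Smc1a and 0.15 for Stag3 to Stag2.

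The replicate numbers are shared between groups, but no label says that a number marks a batch, and only 2 pairs exist. Deviations of same-numbered libraries correlated at 0.49 and 0.28 for GV with MII with DMSO, at -0.60 and -0.35 for DMSO with BYBX and at -0.33 for GV with BYBX, across genes. With the replicate number as a block, Smc3 from GV to MII with DMSO (log2 change -0.71, limma adjusted p = 0.062) and Smc2 from DMSO to BYBX (0.71, limma adjusted p = 0.054) no longer passed, and the other 22 changes of members kept their side. Within same-numbered pairs the difference in log2 ratio of Smc1b to Smc1a was 0.0308 (DMSO against GV) and -0.17 (BYBX against DMSO).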
